A study of Mus musculus with 4 samples.

Results

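Nuclei in the cell cycle were sought in single-nucleus RNA sequencing of the lateral septum (LS) of the mouse, a forebrain nucleus that borders the lateral ventricle. A nucleus was taken as dividing when it carried at least 3 unique molecular identifiers (UMIs, each 1 counted RNA molecule) over the 4 genes Mki67, Top2a, Cenpf and Kif11, from at least 2 of these genes. The members were thus chosen by these measured counts. Of 55660 nuclei with 200 to 6000 genes and under 2% mitochondrial UMIs, 277 met this rule. They were split by Pdgfra, the growth factor receptor of oligodendrocyte precursor cells (OPCs), into 43 nuclei with at least 1 Pdgfra UMI and 234 nuclei with 0.

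The adult forebrain keeps separate populations of dividing cells. Neural stem cells in the wall of the lateral ventricle give rise to transit amplifying cells that carry Egfr, and these to neuroblasts that carry Dcx and the Dlx factors, which keep dividing while they migrate and mostly become inhibitory interneurons of the olfactory bulb. OPCs divide within the tissue itself and give rise to the oligodendrocytes (OLs) that make myelin. A dividing cell copies its DNA in S phase with the MCM helicase and the replicative polymerases, and then builds kinetochores and a spindle in mitosis, so that the mRNAs of these machines mark the phases.

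Each of the 4 libraries pooled LS tissue of several male mice aged 6 to 8 weeks. The C57J mice (C57BL/6JNifdc) gave 2 libraries, here C57J 1 and C57J 2, while a single library came from nude and a single one from BALB/c mice. Nude mice lack Foxn1 and T cells and are of BALB/c descent, so that their library and the BALB/c one are grouped here as the BALB/c background. C57J 1 was batch 1 and the other 3 libraries were batch 2. Mice are not told apart within a library, so p-values measure the spread between 4 pooled libraries, and nude and BALB/c had 1 library each. The deposited matrices held 102939576 UMIs in 17025 barcodes of C57J 1, 72912922 UMIs in 14092 barcodes of C57J 2, 82169638 UMIs in 14697 barcodes of nude and 125998527 UMIs in 12558 barcodes of BALB/c. Of these barcodes 14836, 14074, 14670 and 12080 were kept, in the same order, with a median of 5851, 4435, 4885 and 8877 UMIs per nucleus. Wherever 4 values follow one another below, they keep this order of libraries. Between 29 and 63 barcode sequences were shared by any 2 libraries.

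The 4 genes of the rule work in chromosome segregation. Mki67 coats mitotic chromosomes and lies on chromosome 7 from 135689784 to 135716361 on the minus strand (GRCm38, GENCODE vM21). Top2a, the topoisomerase that untangles sister DNA, lies on chromosome 11 from 98992943 to 99024189 on the minus strand. Cenpf, a protein of the outer kinetochore, lies on chromosome 1 from 189640606 to 189688086 on the minus strand. Kif11, the motor that pushes spindle poles apart, lies on chromosome 19 from 37376403 to 37421859 on the plus strand. Their promoters are shown because genes of this phase are known to be switched on through short shared motifs. The 200 bases before each RefSeq start (GRCm38.p6) are printed 5′ to 3′ on the strand of the gene, and lie at chr7:135716380-135716579 (minus, Mki67), chr11:99024190-99024389 (minus, Top2a), chr1:189688087-189688286 (minus, Cenpf) and chr19:37376182-37376381 (plus, Kif11), in no annotated exon. Capitals mark TTTGAA or its complement TTCAAA (the core of the cell cycle homology region, CHR), TTCGAA, which is its own reverse complement, and CCAAT or its complement ATTGG.
Mki67: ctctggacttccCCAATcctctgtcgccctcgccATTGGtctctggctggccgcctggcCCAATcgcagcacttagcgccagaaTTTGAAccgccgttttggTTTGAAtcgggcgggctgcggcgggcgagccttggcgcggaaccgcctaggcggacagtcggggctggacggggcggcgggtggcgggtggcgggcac
Top2a: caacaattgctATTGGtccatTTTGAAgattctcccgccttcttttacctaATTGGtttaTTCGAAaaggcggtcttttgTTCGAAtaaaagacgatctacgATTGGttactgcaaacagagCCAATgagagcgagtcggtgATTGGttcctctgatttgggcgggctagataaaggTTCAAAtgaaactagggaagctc
Cenpf: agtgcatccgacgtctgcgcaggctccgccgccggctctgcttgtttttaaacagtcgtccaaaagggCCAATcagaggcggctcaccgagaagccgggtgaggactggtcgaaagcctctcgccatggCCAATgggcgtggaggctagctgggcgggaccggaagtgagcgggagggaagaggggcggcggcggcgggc
Kif11: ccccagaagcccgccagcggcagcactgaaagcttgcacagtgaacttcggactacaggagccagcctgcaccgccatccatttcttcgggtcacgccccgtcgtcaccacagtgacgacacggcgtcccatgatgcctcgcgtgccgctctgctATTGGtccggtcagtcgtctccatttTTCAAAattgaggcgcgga

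The CHR letters occurred 2 times in the Mki67 promoter, 2 times in that of Top2a, 1 time in that of Kif11 and 0 times in that of Cenpf. CCAAT or ATTGG occurred 3, 5, 1 and 2 times, respectively, and TTCGAA 2 times before Top2a and 0 times before the other 3 genes. Among all 27025 promoters of the same length, searched on both strands, 12.7% held the CHR letters, 1.00% TTCGAA and 30.02% CCAAT. Of the 25 genes of a list for the spindle and cytokinesis, 23 had a promoter, of which 7 (30.4%) held the CHR letters and 14 (60.9%) CCAAT. The CHR letters occurred in 2 of 16 promoters of mitotic kinases and checkpoint genes (12.5%), 5 of 27 of kinetochore genes (18.5%), 3 of 32 of replication genes (9.38%), 2 of 15 of neuroblast genes (13.3%) and 1 of 9 of OPC genes (11.1%). CCAAT occurred in 10 (62.5%), 15 (55.6%), 18 (56.2%), 8 (53.3%) and 2 (22.2%) of the same promoters, in the same order of lists. A match describes the letters only and not a bound factor.

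The rule fixed how high the 4 genes were, so their values are a description. In CPM, the UMIs of a gene per 1000000 UMIs of the class, summed over the dividing nuclei of a library, Mki67 stood at 291 (C57J 1), 325 (C57J 2), 271 (nude) and 437 (BALB/c). Top2a stood at 547, 806, 715 and 737 CPM in the same order, Cenpf at 259, 229.8, 218 and 366 CPM, and Kif11 at 339, 434, 351 and 289.5 CPM. The libraries of the C57J and BALB/c backgrounds overlapped for each of the 4 genes. A dividing nucleus held a median of 7 UMIs of these genes and at most 44. Top2a was found in 264 of the 277 nuclei, Kif11 in 217, Mki67 in 214 and Cenpf in 167, and 98 nuclei held all 4.

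The edge of the rule was thin. Just inside it, 36 nuclei held exactly 3 UMIs, at a median depth of 3216.5 UMIs, and 22 of them lay in the neuroblast-like cluster described next. Just outside it, 50 nuclei held 2 UMIs from 2 of the genes, at a median depth of 3343 UMIs, and 28 of them lay in that cluster. A further 25 nuclei held 3 or more UMIs from 1 gene alone, and 1898 nuclei in all held any UMI of the 4 genes. The quality limits removed 8 barcodes that met the rule, of which 6 had over 6000 genes, 6 of the 8 in C57J 1 and 2 in BALB/c. The rule was rarely met where no division is known, by 0 of 5232 nuclei of the largest astrocyte cluster, which allows a share of up to 0.0573%, and by 5 of 5139 nuclei (0.0973%) of the mature OL cluster, whose median depth was 2292 UMIs.

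Most dividing nuclei were neuroblast-like. When all nuclei were clustered without 196 cell cycle genes, 211 of the 277 dividing nuclei fell into 1 cluster of 1072 nuclei with neuroblast markers (49, 54, 36 and 72 nuclei in library order). Another 32 fell into the OPC-like cluster of 2211 nuclei (14, 8, 1 and 9 nuclei). The name of progenitor went against the markers of the others, of which 10 lay in a microglia-like cluster, 4 in an ependymal-like cluster and 20 in further clusters. All 7 microglial genes of the list were found in the 10 microglia-like nuclei, at a summed 3128 CPM against 67.3 CPM in the neuroblast-like ones. Of the 12 OPC genes Pdgfra, Olig2, Sox10 and Tnr were at 0 there, and the other 8 were found, with the most counts on Ptprz1 (26 UMIs, 512 CPM), Sox6 (22 UMIs, 433 CPM) and Vcan (12 UMIs, 236 CPM). The 4 microglia-like nuclei of C57J 1 held 23 of these Ptprz1 UMIs and all those of Sox6 and Vcan. Spindle genes summed to 5233 CPM in these microglia-like nuclei and to 5056 CPM in the neuroblast-like ones. In the 20 nuclei of further clusters, at a median depth of 11709.5 UMIs, spindle genes summed to 996 CPM and genes of mature neurons to 14746 CPM.

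**Figure D1:**
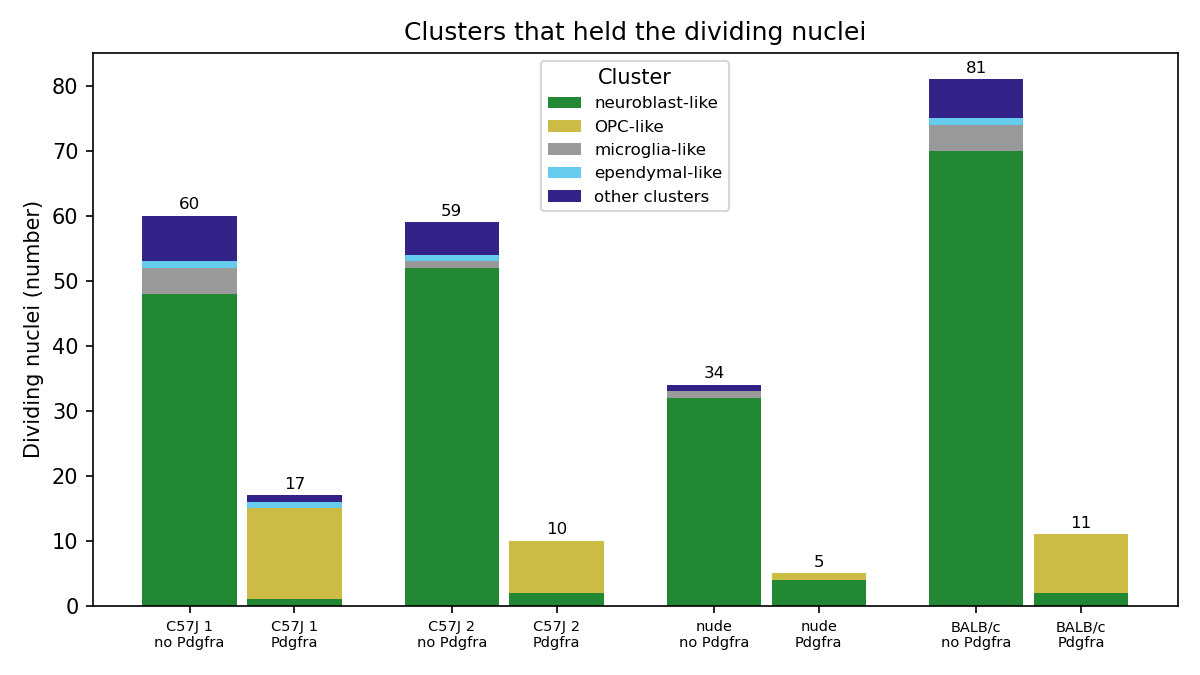
Number of dividing nuclei (vertical axis) without and with Pdgfra in each library (bars), coloured by the cluster in which they lay. The neuroblast-like cluster held 211 of the 277 nuclei and the OPC-like cluster 32, of which 1 was from the nude library.

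Pdgfra separated these clusters, with exceptions. All 32 dividing nuclei of the OPC-like cluster carried Pdgfra, against 9 of the 211 in the neuroblast-like cluster (4.27%), each with 1 UMI. Among nuclei with 0 UMIs of the 4 rule genes, Pdgfra was found in 87.5% of 2121 OPC nuclei (median depth 3340 UMIs), in 4.53% of 728 neuroblast nuclei (2053.5 UMIs) and in 4.29% of 25178 neurons (8108.5 UMIs). The share of OPC nuclei was 87.4%, 80.5%, 82.6% and 99.3% by library. The 4.27% of dividing neuroblast-like nuclei (median depth 3512 UMIs) was close to the shares in these neuroblasts and neurons, and by library it was 1 of 49, 2 of 54, 4 of 36 and 2 of 72 nuclei. Nude thus held the highest share (11.1%, exact 95% interval 3.11 to 26.1%), against 4.32% (1.75 to 8.70%) of its other neuroblast nuclei, and the intervals overlapped. With 5 OPC genes other than Pdgfra (Cspg4, Olig1, Olig2, Sox10, Vcan) set against 5 neuroblast genes (Dlx1, Dlx2, Sp9, Sox11, Igfbpl1), 189 of the 234 nuclei without Pdgfra held more UMIs of the neuroblast genes, 19 more of the OPC genes, and 26 were tied. Of the 43 nuclei with Pdgfra 33 held more of the OPC genes and 5 more of the neuroblast genes, with 5 tied. The 5 nude nuclei with Pdgfra held 6 Pdgfra UMIs and 0 UMIs of Olig1, Olig2 and Sox10, the transcription factors of the OL lineage, and 4 of the 5 lay in the neuroblast-like cluster. Nude values for nuclei with Pdgfra thus rest on 1 OPC-like nucleus and 4 neuroblast-like ones.

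**Figure D2:**
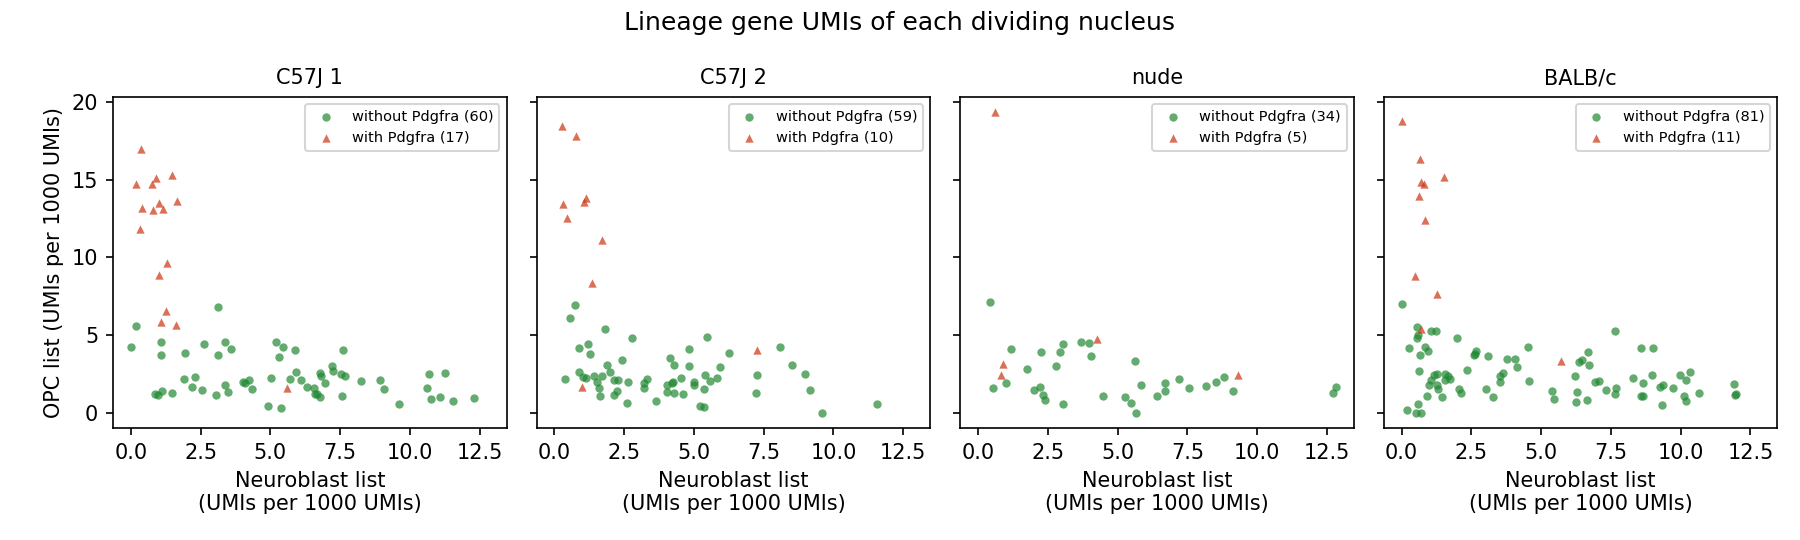
UMIs of the 12 genes of the OPC list (vertical axis) against those of the 20 genes of the neuroblast list (horizontal axis), both per 1000 UMIs of the nucleus, with 1 panel per library and 1 point per dividing nucleus. Triangles, the nuclei with Pdgfra (17, 10, 5 and 11 by panel), lie mostly high on the OPC axis, except in the nude panel.

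The median depth of dividing nuclei was 3872 UMIs (4150, 2483, 2459 and 5512.5 UMIs by library), with a range of 1410 to 24911. This was below the median of nuclei kept in each library, and above that of the neuroblast nuclei with 0 UMIs of the rule genes (2066, 1623, 1669 and 3367.5 UMIs), while such OPC nuclei had 3456.5, 2645, 2611 and 5589 UMIs. Many were scored as doublets (2 nuclei in 1 droplet). A doublet score marked 74 of the 277 (26.7%), against 11.2% of all nuclei kept. The share was 65.1% of nuclei with Pdgfra (28 of 43) and 19.7% of those without (46 of 234), and 25 of the 32 dividing OPC-like nuclei were marked. Of the 20 nuclei of further clusters 13 were marked (65%). The marked nuclei were kept, and the shares and counts of called genes below were also taken without them. Of the libraries' dividing nuclei, those without Pdgfra held 302098, 190821, 139227 and 572185 UMIs and those with Pdgfra 107409, 39837, 11908 and 66836 UMIs. A single UMI of the class with Pdgfra was thus worth 9.31, 25.1, 84.0 and 14.96 CPM, most in the nude library.

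Genes of replication and nucleotide supply, the S phase lists, gave at least 1 UMI in 275 of the 277 dividing nuclei, and genes of the spindle, the kinetochore and the mitotic kinases in all 277. Such a UMI is not particular to dividing nuclei, since 74.7% of the shallower neuroblast nuclei with 0 UMIs of the rule genes held one of the S phase lists and 88.0% one of the mitotic lists. Mitotic lists made up a median of 10.0 UMIs per 1000 in dividing nuclei (range 0.528 to 26.3) and of 0.995 in these neuroblast nuclei. For the S phase lists the medians were 2.09 per 1000 (range 0 to 9.01) and 0.614. The 4 rule genes act in mitosis, and no phase was called from these values.

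Dividing nuclei without Pdgfra were set beside the 728 neuroblast nuclei with 0 UMIs of the rule genes. This contrast follows the rule, so it has no test, and a gene was counted when its 4 dividing values all lay above or all below its 4 values in neuroblast nuclei, among genes at 20 CPM or more. Over all 8411 such genes 9.65% lay above and 5.8% below, with a median log2 ratio of 0.06. Of spindle and cytokinesis genes 24 of 25 were above and 0 below (median log2 ratio 4.63). Tpx2, which nucleates spindle microtubules, stood at 205, 178, 158 and 241 CPM in library order, against 6.60, 0, 0 and 2.73 CPM in neuroblast nuclei. The microtubule polymerase Ckap5 was also present in these neuroblast nuclei, at 165, 200, 171 and 168 CPM, and stood higher in the dividing nuclei of each library, at 397, 445, 582 and 580.2 CPM. All 4 dividing values lay clear of the others for both genes.

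Genes that hold and check the chromosomes were also mostly above. Of the mitotic kinases and checkpoint genes 16 of 18 were above and 0 below (median 4.40), among them the checkpoint kinase Ttk at 142, 99.6, 115 and 208 CPM against 6.60, 3.22, 3.35 and 1.37 CPM in neuroblast nuclei. Of centromere and kinetochore genes 22 of 27 were above (median 3.14), such as the motor Cenpe at 205, 257, 201 and 234 CPM against 2.20, 3.22, 10.1 and 6.83 CPM. Of condensin and cohesin genes 12 of 15 were above (median 2.37), and the condensin subunit Smc4 stood at 238, 429.7, 316 and 389.7 CPM against 33.0, 22.5, 47.0 and 45.1 CPM. None of these 3 lists had a gene below.

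Genes that copy and repair DNA were counted in the same way. Of 28 replication genes 12 were above and 0 below (median 1.17), and Pola1, the catalytic subunit of the priming polymerase, stood at 417, 477, 431 and 565 CPM against 229, 155, 171 and 231 CPM. Of nucleotide supply genes 5 of 7 were above (median 1.51), among them the ribonucleotide reductase subunit Rrm2 at 56.3, 52.4, 35.9 and 66.4 CPM against 6.60, 0, 10.1 and 6.83 CPM. All 17 DNA repair genes were above (median 2.18), such as Brca1, a factor of homologous recombination, at 59.6, 136, 71.8 and 143 CPM against 24.2, 9.66, 13.4 and 10.9 CPM. The lists share the contrast that chose the nuclei, and nothing is read from the counts.

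Of 27 genes for cyclins, cyclin-dependent kinases and their regulators, 20 were above and 0 below (median 2.13). Ccnd2, a D-type cyclin that carries cells out of G1, stood at 480.0, 524, 517 and 718 CPM against 365, 261, 339 and 425 CPM in neuroblast nuclei. Its partner kinase Cdk6 stood at 179, 199, 144 and 374 CPM against 106, 29.0, 87.2 and 69.6 CPM. Values for Ccnd2 lay close between the classes, while those for the mitotic cyclin Ccnb1, at 66.2, 47.2, 50.3 and 59.4 CPM against 0, 0, 3.35 and 0 CPM, lay far apart.

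Of 20 neuroblast genes 0 were above and 7 below (median −0.75), namely Dcx, Dlx6os1, Sp9, Cd24a, Tubb3, Robo2 and Gad1, and the values of the other 13 overlapped. Dcx, a microtubule protein of migrating neuroblasts, stood at 205, 173, 187 and 227 CPM against 427, 377, 298 and 561 CPM. Robo2, a receptor for the guidance cue Slit, stood at 573, 314, 869 and 411 CPM against 2186, 1922, 1472 and 3633 CPM. The long noncoding RNA Dlx6os1 stood at 894, 687, 761 and 1045 CPM against 1064, 1114, 1083 and 2023 CPM, so that BALB/c neuroblasts were well above the other 3 libraries. Dlx1, an earlier factor of the same lineage, overlapped between the classes at 328, 267, 201 and 217 CPM against 257, 161, 171 and 180.2 CPM, and was higher in the dividing nuclei of each library.

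Some of the 15 genes furthest below, without regard to list, are given next. Synpr, a synaptic vesicle protein, stood at 103, 88.9, 71.8 and 96.1 CPM against 486, 425, 429 and 816 CPM. The calcium buffer Calb2, also among the 15, marks a class of olfactory bulb interneurons. Adarb2, an RNA-editing family member known from interneurons, stood at 890, 477, 690 and 524 CPM against 3313, 3290, 2623 and 5566 CPM. Of the 7 genes of the mature neuron list 1 was below (Snap25) and 0 above (median 0.048). The 15 genes furthest above were the 4 rule genes and 11 others, of which Psrc1, Kif14, Tpx2, Hmmr, Ect2, Kif4, Sgo1, Aurka and Ccnb1 act in mitosis.

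Among transit amplifying genes, the epidermal growth factor receptor Egfr stood at 222, 252, 338 and 634 CPM against 191, 138, 225 and 244 CPM, and the classes overlapped. Btg2, an antiproliferative gene of the last division, stood at 9.93, 15.7, 14.4 and 12.2 CPM against 35.2, 25.8, 33.5 and 23.2 CPM, and was below in every library. Of 17 progenitor signalling genes 5 were above (Notch1, Ptch1, Gli3, Bmpr1a, Lrig1) and 1 below (Erbb4). The receptor Notch1 stood at 106, 73.4, 122 and 103 CPM against 37.4, 35.4, 50.3 and 34.1 CPM, and Gli3, a mediator of Hedgehog signalling, at 126, 121, 208 and 147 CPM against 57.2, 32.2, 50.3 and 28.7 CPM.

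Genes that mark the position of a progenitor in the developing forebrain gave 1 of 11 above (Pax6) and 4 below (Meis2, Pbx3, Etv1, Tshz1). Pax6, a factor of dorsal progenitors and of olfactory bulb interneurons, stood at 99.3, 110.1, 79.0 and 75.2 CPM against 41.8, 6.44, 53.7 and 36.9 CPM. Meis2 stood at 1304, 969, 1329 and 1456 CPM against 2616, 2785, 2479 and 3736 CPM. Zic1, a factor of the septal wall, was present in both classes, at 252, 236, 179.6 and 147 CPM against 301, 241, 228 and 198 CPM. Markers of pallial excitatory lineages were at or near 0 in the dividing nuclei without Pdgfra, with 0 UMIs of Emx1 and Tbr1 and 1 UMI each of Eomes and Neurog2. Markers of the medial ganglionic eminence were as rare, with 1 UMI of Nkx2-1 and 2 of Lhx6, where 3 UMIs over the class correspond to 2.49 CPM.

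**Figure D3:**
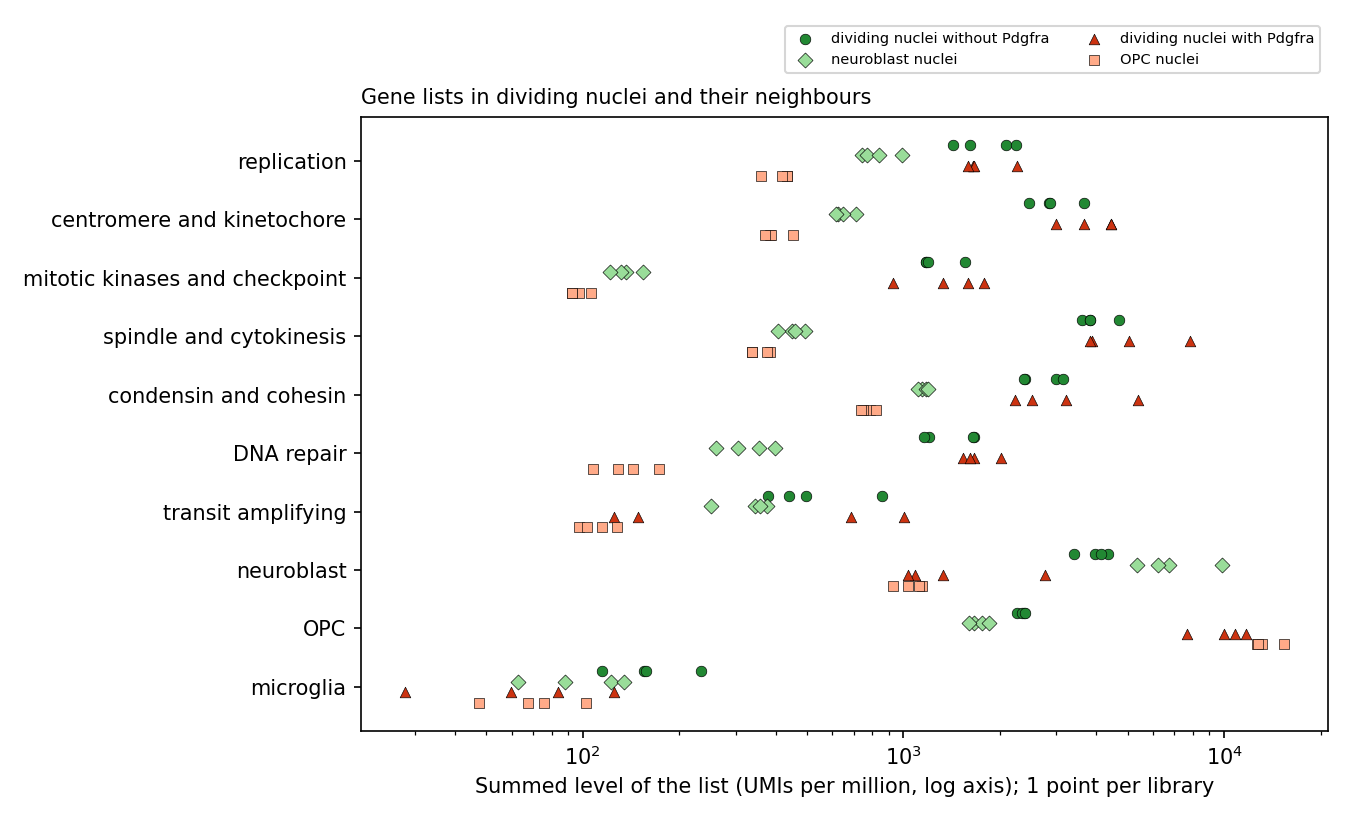
Summed level of 10 gene lists in CPM (horizontal log axis) in dividing nuclei without and with Pdgfra and in neuroblast and OPC nuclei with 0 UMIs of the rule genes, 1 point per library. Spindle genes stand at 3615 to 4686 CPM in dividing nuclei without Pdgfra against 406 to 493 CPM in neuroblast nuclei.

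Genes of other cell types were counted in both classes. The 12 OPC genes summed to 2267, 2369, 2341.5 and 2389 CPM in dividing nuclei without Pdgfra and to 1664, 1755, 1845 and 1607 CPM in neuroblast nuclei, with the most counts on Ptprz1. Of the 6 at 20 CPM or more 2 were above (Ptprz1, Sox6) and 0 below (median 0.14), beside 9.65% above over all genes. The receptor phosphatase Ptprz1 stood at 854, 1069, 1120 and 1155 CPM against 563, 522, 671 and 537 CPM, and the transcription factor Sox6 at 636, 456, 481 and 797 CPM against 328, 290, 302 and 364.5 CPM. Both were also found in the dividing nuclei of the neuroblast-like cluster alone, at 1296 and 749.8 CPM over all libraries. Of 3 genes of newly forming OLs the transcription factor Tcf7l2 was above, at 218, 110.1, 101 and 164 CPM against 72.6, 22.5, 60.4 and 36.9 CPM. Of 6 mature OL genes and 8 astrocyte and neural stem cell genes 0 lay apart. Genes of mature neurons summed to 8888, 8175, 9352 and 6087 CPM in dividing nuclei without Pdgfra against 6957, 7521, 7996 and 4934 CPM, with the most counts on Meg3. In the dividing nuclei of the neuroblast-like cluster alone Meg3 stood at 3432, 3051, 4558 and 2169 CPM. Neuroblast nuclei had 3155, 3551, 3713 and 2546 CPM of Meg3, so that the dividing nuclei were lower in C57J 2 and BALB/c. The 7 microglial genes summed to 156, 157, 115 and 234 CPM against 87.9, 122, 134 and 62.8 CPM, and the microglial receptor Csf1r was among the genes above. Of its 27 UMIs 20 lay in the microglia-like nuclei. In the dividing nuclei of the neuroblast-like cluster alone Csf1r stood at 6.41 CPM over all libraries, against 8.35 CPM in neuroblast nuclei. The 5 ependymal genes summed to 9.93, 5.24, 21.5 and 147 CPM against 17.6, 25.8, 10.1 and 21.8 CPM, most on Tmem212, so that BALB/c stood apart. Of the 34 Tmem212 UMIs of BALB/c 1 lay in neuroblast-like nuclei, and 1 BALB/c member lay in the ependymal-like cluster. Cd3e, Cd3g, Trbc2 and Nkg7, which define T and NK cells, were at 0 in all dividing nuclei. The part of these genes in the contrasts was not tested.

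Dividing nuclei with Pdgfra were set beside those without for the lineage genes that the rule did not use. In this contrast, where over all 8847 genes 6.13% were higher and 2.63% lower in those without, 4 of the 10 OPC genes other than Pdgfra lay lower in nuclei without Pdgfra (Cspg4, Lhfpl3, Ptprz1, Tnr) and 10 of 18 neuroblast genes higher (Dcx, Sox11, Dlx1, Dlx2, Sp8, Sp9, Igfbpl1, Tubb3, St8sia2, Robo2). Pdgfra, on chromosome 5 from 75152292 to 75198215 on the plus strand, stood at 810.0, 628, 504 and 1062 CPM in nuclei with Pdgfra and, by the rule, at 0 in the others. The proteoglycan NG2 gene Cspg4 stood at 251, 151, 84.0 and 179.5 CPM against 6.62, 0, 0 and 6.99 CPM without Pdgfra. Xylt1, which starts the sugar chains of such proteoglycans, stood at 1611, 1406, 1008 and 2274 CPM against 76.1, 68.1, 43.1 and 90.9 CPM.

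The neuroblast factor Dlx2 had 0 UMIs in nuclei with Pdgfra, where 3 UMIs over the class are worth 13.3 CPM, and 49.0 CPM in those without, at least 3.69-fold higher. Of the 15 genes highest in nuclei without Pdgfra all 15 were at 0 in those with, at bounds of 1.88 to 4.69-fold. The highest bound belonged to Inpp5d, a phosphatase of immune cells that is known from microglia, and Dock2 of the same cells was among the 15. Microglial Csf1r stood at 16.6, 21.0, 28.7 and 24.5 CPM without Pdgfra and at 9.31, 0, 0 and 0 CPM with it, and all 10 microglia-like members lacked Pdgfra.

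Cycle genes were counted in the same contrast, beside the 6.13% higher and 2.63% lower over all genes. For the spindle list 0 of 25 genes lay apart (median log2 ratio of without to with −0.22), for nucleotide supply 0 of 7 and for progenitor signalling 0 of 18. Higher in nuclei without Pdgfra were Mcm6 and Timeless of 29 replication genes, Mad1l1 of 18 mitotic kinases and checkpoint genes, Smc3 of 16 condensin and cohesin genes and Rad54l of 17 DNA repair genes. Lower were Ska3 and Hjurp of 29 kinetochore genes, Smc1a of the cohesin list and Cdkn2c and Lin54 of 29 cyclins and regulators. Each list had at most 2 genes apart, and nothing is read from these counts. Hjurp, the chaperone that loads the centromeric histone, stood at 305, 241, 179.6 and 400.2 CPM without and 475, 427, 504 and 569 CPM with Pdgfra. The D-type cyclins went opposite ways in 3 of the 4 libraries. Ccnd1 stood at 83.8, 100.4, 0 and 59.8 CPM with Pdgfra and at 6.62, 5.24, 21.5 and 12.2 CPM without, whereas Ccnd2 stood at 74.5, 126, 672 and 29.9 CPM with Pdgfra and at 480.0, 524, 517 and 718 CPM without. The nude library alone broke both patterns, on 8 Ccnd2 UMIs and 0 Ccnd1 UMIs.

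Set beside the 2121 OPC nuclei with 0 UMIs of the rule genes, dividing nuclei with Pdgfra had 22 of 25 spindle genes above and 0 below (median log2 ratio 5.90), where 6.71% of all 8498 genes lay above and 6.33% below. Kif23, a motor of the cytokinetic midzone, stood at 158, 326, 1176 and 344 CPM against 3.34, 2.45, 1.69 and 0.877 CPM in OPC nuclei. Of mitotic kinases and checkpoint genes 11 of 17 were above, of kinetochore genes 14 of 28, of condensin and cohesin genes 12 of 16, of DNA repair genes 11 of 15, of cyclins and regulators 15 of 27 and of replication genes 8 of 19, with 0 below in each. This contrast too follows the rule, and nothing is read from the counts.

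The OPC genes Lhfpl3, C1ql1 and Tnr lay below in dividing nuclei with Pdgfra, of 12 OPC genes and with 0 above (median −0.60). Lhfpl3 stood at 3268, 3565, 2771 and 2648 CPM against 4414, 4587, 4412 and 4167 CPM in OPC nuclei. Tnr, an extracellular matrix protein, stood at 1890.0, 2083, 1344 and 1915 CPM against 2723, 2933, 2612 and 3267 CPM. C1ql1 rested on 4 UMIs in the dividing nuclei. Olig2 stood at 74.5, 176, 0 and 195 CPM against 105, 89.5, 77.1 and 156 CPM, and the classes overlapped. Of 17 progenitor signalling genes Smo, Igf1r and Tgfbr1 were above, and the growth factor receptor Igf1r stood at 363, 377, 504 and 613 CPM against 243, 239.6, 232 and 277 CPM. Ependymal genes summed to 233, 25.1, 84.0 and 0 CPM in these nuclei, where 1 C57J 1 nucleus lay in the ependymal-like cluster.

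The share of dividing nuclei differed most between the libraries of the same background. In C57J 1 it was 0.519% (77 nuclei, exact Clopper-Pearson 95% interval 0.410 to 0.648%) and in C57J 2 it was 0.490% (69 nuclei, 0.382 to 0.620%). The nude library had the lowest share, 0.266% (39 nuclei, 0.189 to 0.363%), and the BALB/c library the highest, 0.762% (92 nuclei, 0.614 to 0.933%). The C57J libraries lay between the other 2, and no difference between backgrounds was detected (log2 ratio 0.03, exact two-sided permutation test over 4 libraries, p = 1, smallest possible p 0.333). Within batch 2 alone, that is without C57J 1, the log2 ratio was 0.07. Without nude it was 0.59 and without BALB/c −0.92. With predicted doublets removed the shares were 0.398%, 0.392%, 0.255% and 0.632% (log2 ratio 0.17). Intervals cover counting error only, and the spread between mice is not known.

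BALB/c was the deepest library, so the shares were also taken at equal depth. After every nucleus was thinned to 2000 UMIs, with shallower nuclei left out, 44 of 13581, 37 of 11191, 15 of 12251 and 63 of 11917 nuclei still met the rule, or 0.324%, 0.331%, 0.122% and 0.529%. The interval of nude (0.0685 to 0.202%) lay below those of C57J 1 (0.236 to 0.435%), C57J 2 (0.233 to 0.455%) and BALB/c (0.406 to 0.676%). With 2 UMIs from 2 genes asked of the thinned nuclei, a rule added after seeing the data, the shares were 0.368%, 0.375%, 0.188% and 0.579%, and the nude interval (0.119 to 0.282%) overlapped those of C57J 1 (0.273 to 0.485%) and C57J 2 (0.271 to 0.507%). As a share of the neuroblast-like cluster, dividing nuclei made up 17.5%, 20.6%, 15.4% and 24.3% by library. The intervals were 13.2 to 22.5%, 15.9 to 26.02%, 11.01 to 20.7% and 19.5 to 29.6%, and that of nude overlapped the other 3. Without predicted doublets these shares were 15.9%, 17.7%, 13.8% and 22.3%, in the same order from lowest to highest. That cluster itself made up 1.89%, 1.86%, 1.60% and 2.45% of nuclei. The position of the dissection against the ventricle wall was not recorded in the labels and its part was not tested.

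**Figure D4:**
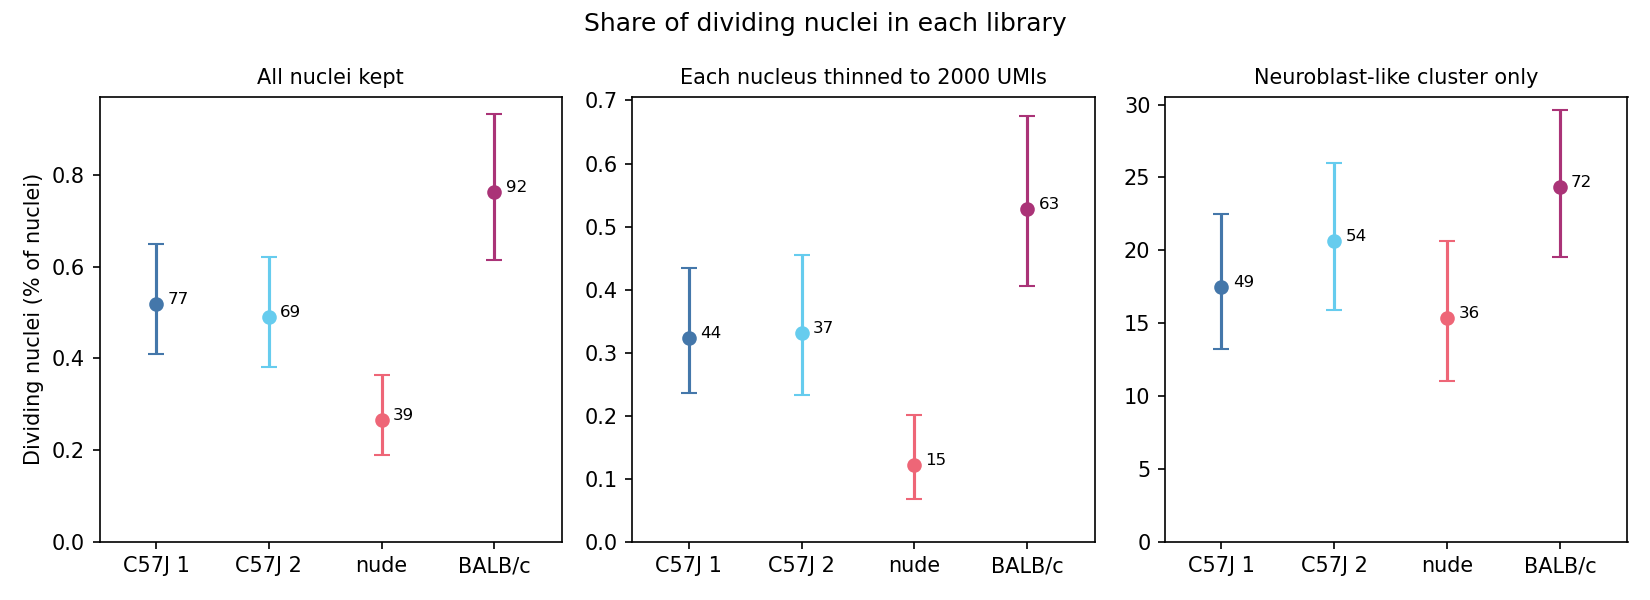
Share of dividing nuclei in percent (vertical axes) for each library, among nuclei kept, after thinning to 2000 UMIs and within the neuroblast-like cluster, with the number of dividing nuclei beside each point and exact 95% intervals for counting error as bars. Nude is lowest and BALB/c highest in all 3 panels (0.266% and 0.762% among nuclei kept), and within the neuroblast-like cluster the intervals of these libraries overlap.

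Dividing OPC-like nuclei made up 14 of 571 nuclei of the OPC-like cluster for C57J 1 (2.45%, interval 1.35 to 4.08%) and 8 of 522 for C57J 2 (1.53%, 0.664 to 3.00%). The nude cluster held 1 among 560 (0.179%, 0.00452 to 0.991%) and the BALB/c one 9 among 558 (1.61%, 0.740 to 3.04%). The nude interval lay below that of C57J 1 and overlapped those of C57J 2 and BALB/c. Without predicted doublets 4 of 466, 2 of 452, 0 of 485 and 1 of 497 nuclei were left (0.858%, 0.442%, 0 and 0.201%), and all 4 intervals overlapped. That of nude ran from 0 to 0.758%. By the rule itself, nuclei with Pdgfra made up 22.1%, 14.5%, 12.8% and 11.96% of dividing nuclei, so that both C57J libraries were above the other 2 (log2 ratio −0.56, exact two-sided permutation test over 4 libraries, p = 0.333, the smallest possible). After thinning to 2000 UMIs the shares were 18.2%, 18.9%, 20% and 7.94% (log2 ratio −0.41), so that nude lay above both C57J libraries. With predicted doublets removed the shares were 9.62%, 6.12%, 12.1% and 4.35%, and the ratio turned to 0.07. Within batch 2 it was −0.23.

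Few genes of dividing nuclei passed the test between backgrounds. UMIs were summed per library, and the 2 C57J libraries were compared with nude and BALB/c by the edgeR quasi-likelihood test, a gene being called at an adjusted p (Benjamini-Hochberg over all genes tested) under 0.05 and a log2 fold change beyond 0.5. Over all dividing nuclei 5 of 6427 genes passed (0.0778%), with 412 genes at an unadjusted p under 0.05. In the BALB/c background 1 gene was higher (0.0156%) and 4 were lower (0.0622%). None was a rule gene or belonged to a list, and all 5 changed in the same direction in both libraries of the background. By DESeq2 1 gene was called, with RLE size factors 0, and with predicted doublets removed 0. The count was 15 without C57J 1, 18 without C57J 2, 22 without BALB/c and 160 without nude.

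The gene that rose was Cfap54, a component of motile cilia (chromosome 10, 92775619 to 93081618, minus strand). It gave 19, 11, 36 and 123 UMIs, or 46.4, 47.7, 238 and 192 CPM, and both C57J values lay below the other 2 (log2 fold change 2.12, SE 0.32, adjusted p = 0.0286, edgeR). Its 189 UMIs lay in 60 of 277 nuclei, 49 of them in 1 ependymal-like BALB/c nucleus. That nucleus held 17223 UMIs in all and was a predicted doublet. Without the 4 ependymal-like nuclei the log2 fold change was 2.06 and the adjusted p 0.265, and 0 genes were called in all. In OPC nuclei with 0 UMIs of the rule genes Cfap54 was called as well (log2 1.72, adjusted p = 0.00225, edgeR), and in such neuroblast nuclei it was not (1.58, adjusted p = 0.483).

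Of the genes that fell, 1500004A13Rik, a noncoding transcript on chromosome 3 (88782943 to 88832547, minus strand) that overlaps 5830417I10Rik, gave 46, 31, 5 and 6 UMIs, or 112, 134, 33.1 and 9.39 CPM (log2 fold change −3.07, SE 0.47, adjusted p = 0.0286, edgeR). Whether the counting used the strand is not given in the sources used here, so overlapping genes may share reads. It was also called lower in neuroblast nuclei (log2 −3.29, adjusted p = 0.00027, edgeR) and in OPC nuclei (log2 −3.24, adjusted p = 0.000109). Its UMIs were spread over 63 dividing nuclei, with at most 5 in any, and 56 of 88 lay in neuroblast-like nuclei.

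The other 3 were lower in both libraries of the BALB/c background and were not called in OPC nuclei, where the log2 fold changes were −0.16 for Nek3, −0.03 for Sgcz and −1.02 for Rarb. In neuroblast nuclei Sgcz (−0.38) and Rarb (−0.95) were not called and Nek3 was too low to be tested. Nek3, a kinase of the NIMA family (chromosome 8, 22128283 to 22166435), stood at 85.5, 99.7, 13.2 and 15.6 CPM on 35, 23, 2 and 10 UMIs (log2 fold change −2.61, SE 0.44, adjusted p = 0.0459, edgeR). Sgcz, a sarcoglycan (chromosome 8, 37522298 to 38661508), stood at 1028, 1062, 404 and 304 CPM on 421, 245, 61 and 194 UMIs (log2 −1.61, SE 0.28, adjusted p = 0.0459). The retinoic acid receptor gene Rarb (chromosome 14, 16430839 to 16819156, overlapping Top2b and Gm48162) stood at 95.2, 225, 13.2 and 26.6 CPM on 39, 52, 2 and 17 UMIs (log2 −2.71, SE 0.47, adjusted p = 0.0459). The study used Rarb as its marker of striatal neurons. A cluster with Rarb among its leading genes held 855, 435, 292 and 328 nuclei by library, and its part in the Rarb values was not tested. Of the 921 Sgcz UMIs 352 lay in OPC-like, 334 in neuroblast-like and 200 in further nuclei, and of the 110 Rarb UMIs 23 lay in 1 nucleus. Without the ependymal-like nuclei the log2 fold changes were −2.68 for Nek3, −1.60 for Sgcz, −3.20 for Rarb and −3.06 for 1500004A13Rik, close to those with them or larger in size, at adjusted p of 0.0694 to 0.0721 (edgeR). Without the members of further clusters these 4 genes were still called and Cfap54 was not.

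**Figure D5:**
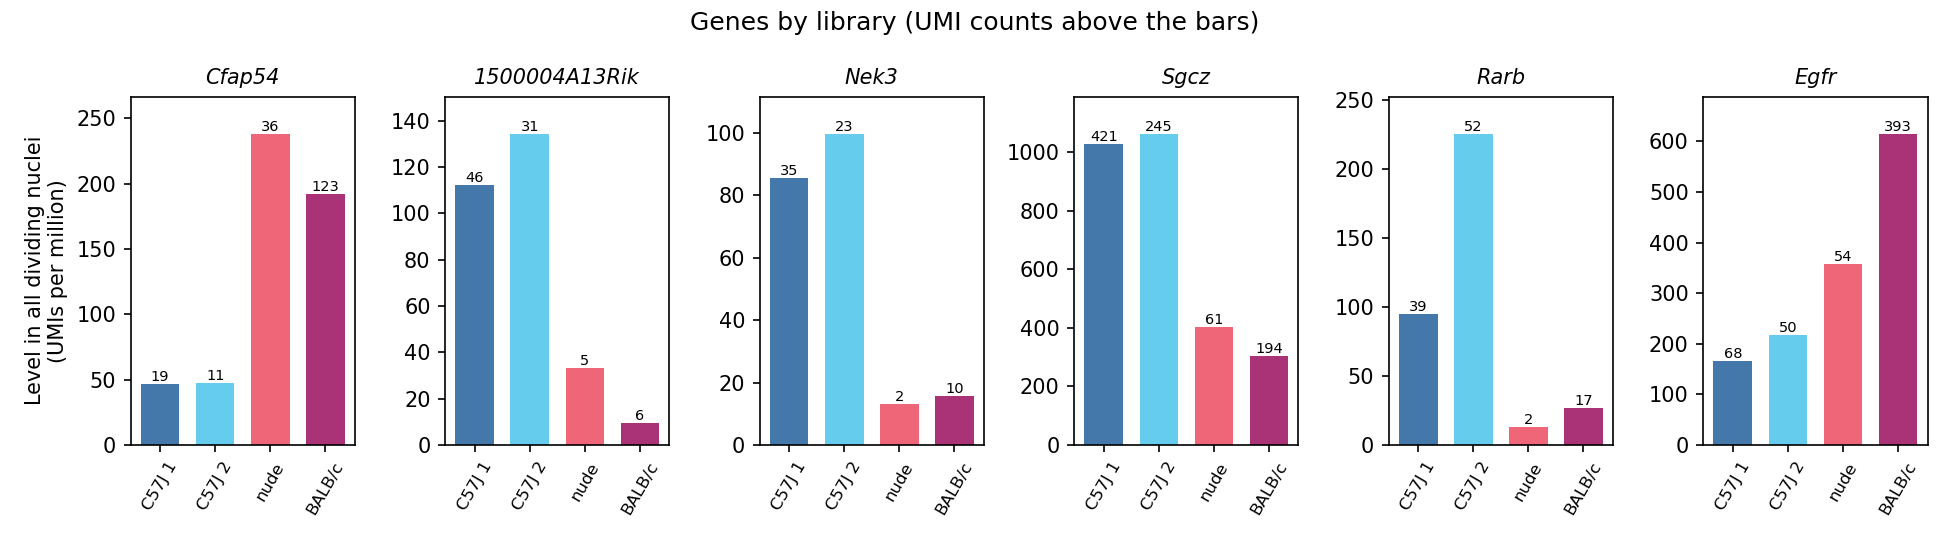
CPM in all dividing nuclei (vertical axes, from 0, 1 scale per gene) for the 5 genes called between backgrounds and for Egfr, which was not called, with 1 bar per library and its UMIs above it. Cfap54 lies higher in nude and BALB/c (238 and 192 CPM) than in the C57J libraries (46.4 and 47.7 CPM), and the 4 others lie lower.

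Among dividing nuclei without Pdgfra 3 of 5400 genes were called (0.0556%, with 302 at an unadjusted p under 0.05). Of these 2 were higher (0.037%) and 1 lower (0.0185%) in the BALB/c background. They were Cfap54 (33.1, 47.2, 244 and 208 CPM, log2 fold change 2.48, SE 0.36, adjusted p = 0.0152, edgeR), 1500004A13Rik (log2 −2.82, SE 0.49, adjusted p = 0.0435) and Dnah6, a dynein heavy chain of motile cilia (chromosome 6, 73017606 to 73221651). Dnah6 gave 0, 0, 11 and 39 UMIs (adjusted p = 0.0375), and at 70.3 CPM in the BALB/c background it was at least 11.5-fold higher than the 6.09 CPM that 3 UMIs over the C57J group are worth. Its 50 UMIs lay in 12 nuclei, 26 of them in 1 ependymal-like BALB/c nucleus, the predicted doublet named above. In neuroblast-like nuclei alone 0 genes were called, and Cfap54 had a log2 fold change of 2.21 (adjusted p = 1.00). With predicted doublets removed or by DESeq2 the count was 0, and it was 109 without nude, 13 without BALB/c, 12 without C57J 1 and 5 without C57J 2.

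Egfr, the receptor of the transit amplifying list, stood at 166, 217, 357 and 615 CPM over all dividing nuclei and was not called (log2 1.38, SE 0.29, adjusted p = 0.191, edgeR). Both C57J libraries lay below the other 2. It was called under 3 of 12 alternatives, without the filter on low counts (adjusted p = 0.00205, edgeR), with 5 UMIs from 3 genes (0.0353) and without nude (8.68e-07), and its log2 fold change ran from 0.92 to 1.65 over all 12. In nuclei without Pdgfra it was called under 1 of 13 alternatives, without nude (log2 1.39, adjusted p = 0.000344, edgeR). Of its 565 UMIs 523 lay in neuroblast-like nuclei. In nuclei with Pdgfra Egfr gave 1, 2, 7 and 30 UMIs, or 9.31, 50.2, 588 and 449 CPM (adjusted p = 0.179), and 36 of these 40 UMIs lay in the nuclei of the neuroblast-like cluster, 27 of them in 1 nucleus. With predicted doublets removed Egfr was called in this class (log2 7.70, adjusted p = 0.0166, edgeR, among 146 genes tested), as it was without C57J 2 (log2 5.27, adjusted p = 0.0342) and without nude (log2 4.27, adjusted p = 4.37e-05).

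In dividing nuclei with Pdgfra 0 of 1117 genes were called by edgeR, with 59 at an unadjusted p under 0.05, and 0 by DESeq2. This class held 5 nuclei and 11908 UMIs in nude, so that few genes could be tested. With predicted doublets removed 10 genes were called, without nude 17, without BALB/c 10, and without either C57J library 1 each.

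The gene lists gave no call in any class. Over all dividing nuclei, where 19.6% of genes lay above and 15.5% below the C57J libraries without overlap (median log2 fold change 0.01), 9 of 25 spindle genes lay above and 1 below (median 0.17), and 8 of 24 cyclins and regulators above and 2 below (median 0.15). Of 14 progenitor signalling genes 6 lay above and 1 below (median 0.27), and of 15 DNA repair genes 0 above and 3 below (median 0.0064). Of 7 OPC genes 1 lay above and 4 below (median −0.86), and of 5 genes of mature OLs 0 lay above and 4 below (median −0.81). Among nuclei without Pdgfra, where 17.5% of genes lay above and 15.7% below, 8 of 24 spindle genes lay above and 1 below (median 0.19). Of 17 cyclins and regulators 2 lay above and 2 below there (median −0.046), and of 14 DNA repair genes 0 above and 2 below (median 0.046). All 4 mature OL genes tested in this class lay below (median −0.86). Mbp of the mature OL list was also lower in neuroblast nuclei, at 466, 303, 188 and 172 CPM in library order. In OPC nuclei it stood at 251, 204, 117 and 124 CPM. Mog of the same list overlapped in neuroblast nuclei, at 17.6, 51.5, 47.0 and 13.7 CPM. Among nuclei with Pdgfra, where 20.9% of genes lay above and 16.9% below, 9 of the 12 spindle genes tested lay above and 0 below (median 0.67), on the few nude and BALB/c nuclei described above. Of 6 OPC genes tested in nuclei with Pdgfra 1 lay above and 1 below (median −0.016). Over all dividing nuclei the log2 ratio of the share of nuclei with Pdgfra was −0.56, and 0.07 with predicted doublets removed. The part of this share in the values of OPC genes was not tested, and summed counts cannot tell fewer such nuclei from less RNA in each.

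Whether the effect of background differed between dividing nuclei and their neighbours was tested by an interaction term with the library as a block. Between dividing nuclei without Pdgfra and neuroblast nuclei 0 of 7105 genes passed (247 at an unadjusted p under 0.05), and between dividing nuclei with Pdgfra and OPC nuclei 0 of 10659 (286). In the neighbours themselves 3 of 6773 genes were called in neuroblast nuclei (0.0443%) and 57 of 11972 in OPC nuclei (0.476%). The calls of Nek3, Sgcz and Rarb in dividing nuclei were therefore not shown to be particular to them.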

How the data were processed

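The authors aligned reads to mm10 with Cell Ranger 7.0.1 and deposited raw UMI counts per gene and barcode, without normalization. Whether intronic reads or the strand were used is not given in the sources used here. From these counts, nuclei were kept by the limits of the opening, doublets were predicted from 2 simulated doublets per nucleus (2000 genes, 30 components, 50 neighbours, 0.8% per 1000 nuclei) and marked, not removed. Nuclei of the 4 libraries were clustered together (3000 variable genes without 196 cell cycle genes, 40 components, 6 neighbours per library, resolution 1, 33 clusters), and clusters were named from fixed markers, so that a difference from the study may come from the rebuilt names. Neuroblast and OPC nuclei are those of these clusters with 0 UMIs of the rule genes.

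UMIs summed per library were tested with edgeR 4.0.16 in R 4.3.3 (filterByExpr, TMM, quasi-likelihood), the library and not the nucleus being the unit, with DESeq2 1.42.0 as an alternative. Other steps used Python 3.11.15, numpy 2.4.6, scipy 1.17.1 and scikit-learn 1.9.0. The scripts were tested on simulated data. Genes named are the rule genes, Pdgfra, list genes, all called genes and, between classes, members of the 15 furthest apart each way. The members and gene lists were chosen with earlier results of these data known, and the cluster-based classes after the files were seen. Promoters are from RefSeq and positions from GENCODE vM21, both on GRCm38. Some list genes are not reported here.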

Additional observations from a re-analysis of the deposited data

Results flagged for a closer look

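The libraries that share the BALB/c background lay on opposite sides of the C57J libraries in the share of dividing nuclei. Against the mean of the C57J shares the log2 ratio was −0.92 for nude and 0.59 for BALB/c. With 1 library each, the difference between them was not tested. The nude library also had the lower median depth per dividing nucleus (2459 against 5512.5 UMIs), and the order of the 2 libraries was the same after thinning (0.122% and 0.529%).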

How the results depend on the processing

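No paired analysis was possible because only C57J has more than 1 library, so that the groups share fewer than 2 replicate numbers. Alternatives on ependymal-like, neuroblast-like, OPC-like and further members, and the thinned rule of 2 UMIs, were chosen after seeing the data, and the cause of each change below was not tested. The log2 ratio of the dividing share, 0.03, turned to −0.0078 on thinning, to −0.012 with 2 UMIs from 2 genes and to −0.0069 without the upper limit of genes, was 0.17 with predicted doublets removed and 0.41 with 5 UMIs from 3 genes, and ran from −0.92 to 0.59 when 1 library was left out. The ratio of the Pdgfra share, −0.56, turned to 0.066 with predicted doublets removed (9.62%, 6.12%, 12.1% and 4.35% by library) and ran from −0.83 to −0.23 with 1 library left out. It was −0.41 on thinning, −1.26 with at least 2 Pdgfra UMIs and −1.27 when members of the OPC-like cluster were counted instead.

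Over all dividing nuclei, 5 called genes became 1 by DESeq2, 0 with RLE size factors, 36 without the filter on low counts, 0 without predicted doublets, 14 with 5 UMIs from 3 genes, 0 without ependymal-like members and 4 without the further clusters. Without Pdgfra, 3 became 0 by DESeq2, 1 with RLE, 35 without the filter, 0 without doublets, 0 with 5 UMIs from 3 genes, 1 without ependymal-like members (Unc13c), 0 without the further clusters and 0 in neuroblast-like members alone. With Pdgfra, 0 became 10 without doublets and 3 in OPC-like members alone (Cdh18, Meg3, Nkain2). For the interaction with neuroblast nuclei 0 became 5 without the filter, and for that with OPC nuclei 1 without doublets (Adarb2). Leaving out 1 library gave 15 to 160, 5 to 109 and 1 to 17 genes in the 3 classes, and 0 to 25 and 0 to 0 for the interactions; the highest of each came without nude, except the last. Without doublets the interaction with neuroblast nuclei turned to −0.19 for Cfap54 and 0.37 for Sgcz, neither called.

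Of the values of single genes under the alternatives, 121 stayed on their side of the threshold in the same direction, 41 lost and 7 gained it (all Egfr), and 2 turned. Cfap54 over all dividing nuclei ranged from 1.16 to 2.33 with an adjusted p (edgeR or DESeq2) up to 0.727, and 1500004A13Rik from −3.71 to −1.87 with one up to 0.478. Values in nuclei with Pdgfra rest on few UMIs, with 11908 in nude.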
